A study of Homo sapiens with 6 samples.

Results

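The interferon-stimulated genes described here are 48 antiviral and immune genes, picked by symbol from the 26485 genes of the count table, and 45 of the 48 had enough reads to be tested among 12854 tested genes. They comprise RNA and DNA sensors, the IFIT, OAS, MX, GBP and IFITM families, the ISG15 system, nuclear body proteins, intracellular restriction factors and a last group around the transcription factor STAT2. Their levels were read in THP1 cells, a human acute monocytic leukemia line, exposed for 6 h to withaferin A (WFA), a plant steroidal lactone, or to its vehicle dimethyl sulfoxide (DMSO), with 3 libraries per group from independent experiments. The study's methods give the WFA concentration as 1 μM and the sample labels as 1 mM, and no genetic change, interferon or infection is described for either group. THP1 is a single tumour line, so the 6 libraries say nothing about spread between donors.

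Type I interferons bind the IFNAR receptor, whose kinases JAK1 and TYK2 phosphorylate STAT2. With IRF9 it enters the factor ISGF3, which binds the interferon-stimulated response element (ISRE) in the promoters of interferon-stimulated genes, whereas interferon gamma acts through the gamma-activated sequence (GAS). The products block viral entry, degrade or trap viral RNA and proteins, or sense nucleic acids, and many are transcribed at a low basal level in monocytic cells without added interferon.

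Promoter letters are shown because the ISRE is the element through which interferon acts on these genes. RefSeq promoter windows of GRCh38.p14 were available for 37 of the 48 members, with 50 transcription starts. A core of the ISRE, GAAA followed by any 2 bases and a further GAAA, was searched on both strands and was found in the 250 bases upstream of 27 of the 50 starts (54%), against 3.02% of 35116 starts of all genes. TTCNNNGAA, the GAS letters, was found upstream of 11 of the 50 starts (22%), against 6.57% of all starts, and the matches of these searches can share bases. Promoters of the members with the largest changes in each direction that hold the ISRE core are printed as 250 bases up to the start, 5′ to 3′ on the gene's strand, with each match to the ISRE core, or its reverse complement, in capitals. They lie at chr19:17405631-17405880 on the minus strand for BST2, and on the plus strand at chr10:89414318-89414567 for IFIT5, chr21:41431800-41432049 for MX1 and chr12:112938224-112938473 for OAS3.
BST2: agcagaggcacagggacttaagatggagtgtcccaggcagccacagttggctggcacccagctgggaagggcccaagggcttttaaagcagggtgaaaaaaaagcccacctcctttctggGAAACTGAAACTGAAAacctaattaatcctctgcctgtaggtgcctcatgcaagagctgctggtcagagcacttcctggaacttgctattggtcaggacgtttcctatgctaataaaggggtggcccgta
IFIT5: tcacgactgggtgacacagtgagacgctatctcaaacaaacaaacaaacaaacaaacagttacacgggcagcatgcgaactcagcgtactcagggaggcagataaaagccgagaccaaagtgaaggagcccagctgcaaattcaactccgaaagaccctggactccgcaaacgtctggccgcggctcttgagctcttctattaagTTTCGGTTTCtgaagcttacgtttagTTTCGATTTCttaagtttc
MX1: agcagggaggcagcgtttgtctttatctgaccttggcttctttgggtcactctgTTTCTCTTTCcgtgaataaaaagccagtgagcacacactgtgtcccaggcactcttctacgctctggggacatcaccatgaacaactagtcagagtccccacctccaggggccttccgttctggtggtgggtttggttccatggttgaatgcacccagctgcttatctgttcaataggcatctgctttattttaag
OAS3: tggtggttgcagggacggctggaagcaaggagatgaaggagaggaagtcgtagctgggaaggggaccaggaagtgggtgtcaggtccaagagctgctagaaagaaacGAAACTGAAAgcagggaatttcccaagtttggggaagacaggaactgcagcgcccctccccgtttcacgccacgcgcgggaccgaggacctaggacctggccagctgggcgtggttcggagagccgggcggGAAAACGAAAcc

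In BST2, a pair of overlapping matches forms 1 run of 3 GAAA repeats. IFIT5 has 2 matches on the reverse strand close to the start, OAS3 has 2 on the gene's strand, and the MX1 start shown has 1, while the other 2 MX1 starts in the table have none. Members that rose and members that fell with WFA both hold the core. Counted by gene, it lay upstream of 4 of 6 members that rose, 5 of 11 that fell and 12 of 17 that were tested without a call. It was not found in the upstream windows of CMPK2, SAMHD1, GBP4, OAS1, STAT2 or XAF1, which says only that these letters are absent there.

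Total counts were between 11006035 and 13872810 per library, and 3 counts corresponded to 0.211 to 0.279 CPM, the unit used throughout for counts scaled to library size with TMM factors. All 9 monocytic markers had 10 or more counts in every library, whereas T cell, B cell, erythroid and epithelial markers each summed to at most 1.85 CPM. The fibroblast list summed to 1.48 to 1.66 CPM in DMSO and 10.0 to 13.8 CPM in WFA through COL1A1, with COL1A2 at 0 in all libraries, and its part in the results was not tested. The 10 most counted genes held 5.28 to 6.5% of counts in DMSO and 8.79 to 9.11% in WFA libraries.

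In DMSO, most of the interferon-stimulated genes were expressed at a low level. Of the 48 members, 7 had a mean of at least 50 CPM, 16 lay between 10 and 50 CPM, 22 between 1 and 10 CPM, and 2 (GBP1 and ISG20) below 1 CPM. IFI27, a small mitochondrial and membrane protein strongly induced by interferon, had no read in any library. The median over the 48 members was 9.21 CPM, against 27.3 CPM over the tested genes, which had passed the count filter, and neither value is corrected for length. SAMHD1, a nucleotide hydrolase that limits retroviral replication, held 40.0% of all member reads in DMSO and SP100 another 11.2%.

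Per kilobase of the longest transcript, which allows levels of different genes to be set side by side, SAMHD1 had the highest basal level at 117 CPM per kilobase. BST2 followed with 51.2, IFI30 with 51.1, SP100 with 44.7, IFITM2 with 36.5 and IFITM3 with 32.5 CPM per kilobase. When the median transcript length was used, 7 of the 10 highest members were the same, but their order changed. SAMHD1 stayed at rank 1, while SP100 moved from rank 4 to 2, BST2 from 2 to 5 and DDX60 from 19 to 6. The coefficient of variation among DMSO libraries ran from 1.97% for PARP9 to 34.7% for MX1 with a median of 11.6% over the 31 members with at least 5 CPM. DMSO replicate 3 was the highest DMSO library for 23 of the 45 tested members, among them all 4 OAS genes, MX1, IFIT2, IFIT3, HERC5, HERC6, GBP4, TRIM22 and RSAD2. Replicate 1 was the highest for 13, among them ISG15, USP18, IFI6, MX2 and CMPK2. Replicate 2 was the highest for 9, among them DDX58 and IFIT1. How often each library was the highest over all tested genes was not computed.

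**Figure D1:**
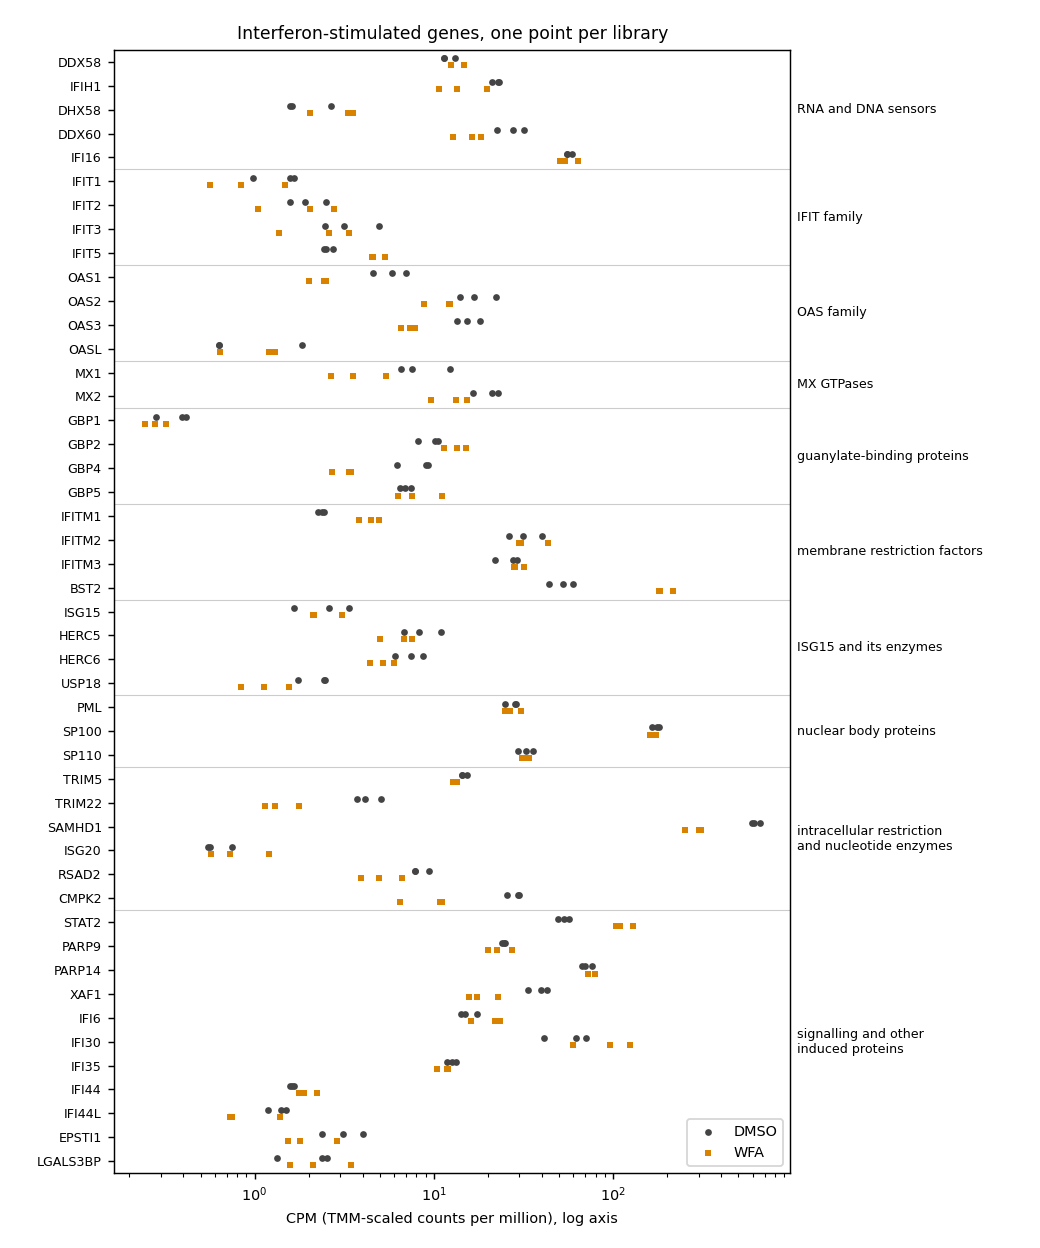
Levels of 47 members (IFI27, at 0, is left out) in CPM on a log axis, with 1 circle per DMSO library and 1 square per WFA library, 3 each, grouped by role. SAMHD1 has the highest DMSO levels, between 594 and 657 CPM, and in WFA lies between 253 and 308 CPM, while BST2 squares between 181 and 217 CPM lie above its circles between 44.2 and 59.8 CPM.

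The members did not move as a unit with WFA. With edgeR's quasi-likelihood test and Benjamini-Hochberg adjustment over all tested genes, at a threshold of 0.05, 7 of 45 members rose (15.6%, against 25.8% of all tested genes) and 15 fell (33.3%, against 24.7%). Together 22 members (48.9%) were called, against 50.5% of all tested genes, a share near the background. Past a 2-fold change, 2 members (4.44%), BST2 and STAT2, were higher, against 8.11% of all tested genes, and 8 (17.8%), TRIM22, CMPK2, GBP4, OAS1, MX1, OAS3, SAMHD1 and XAF1, were lower, against 5.2%. Of the tested members, IFIT1 and IFI44L reached the count filter in all 3 libraries of DMSO alone. These counts describe the list and were not tested against the other genes. In bulk RNA, fewer cells expressing a gene and less RNA per cell cannot be told apart.

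The median log2 fold change over the tested members was −0.08, against 0.02 over all tested genes. Within the 3 experiments, paired by replicate number, the member median was −0.04, −0.23 and −0.17. All 22 called members moved in the called direction in each of the 3 pairs. For all of them except IFI6 and IFI30 the groups did not overlap, so the pairs could not disagree. This count therefore adds little to the calls, and it was not computed for all called genes. In 6 members every WFA library lay above every DMSO library (13.3%, against 29.6% of all tested genes) and in 16 every WFA library lay below (35.6%, against 28.5%). The summed level of all members was 1576, 1505 and 1567 CPM in DMSO and 1392, 1309 and 1383 CPM in WFA. Without SAMHD1 the sums were 919, 911 and 957 CPM in DMSO and 1084, 1008 and 1130 CPM in WFA, so the order of the groups in the sum turned on 1 gene. With BST2 also left out, the sums of 860, 859 and 912 CPM in DMSO overlapped those of 903, 826 and 913 CPM in WFA.

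**Figure D2:**
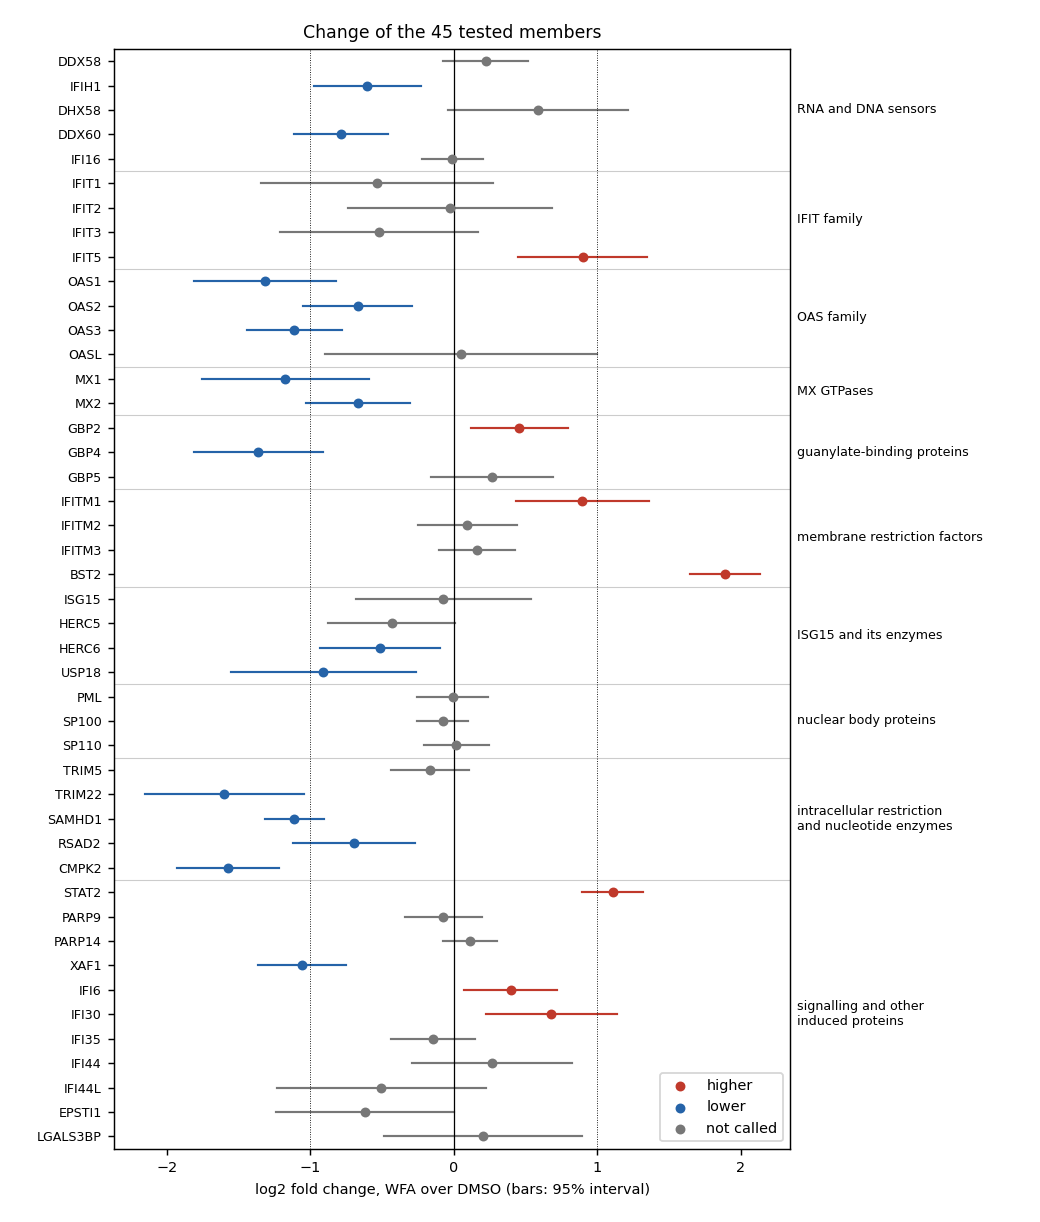
Log2 fold change of WFA over DMSO for the 45 tested members with 95% intervals from edgeR, grouped by role, in red for the 7 that rose, blue for the 15 that fell and grey for the 23 not called, with dotted lines at 2-fold. BST2 at 1.89 and TRIM22 at −1.60 mark the ends of the range.

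Among the sensors of viral nucleic acid, 2 of 5 fell and none rose, where 24.7% of all tested genes fell and 25.8% rose. IFIH1 (MDA5), which detects long double-stranded RNA, fell from 22.3 ± 1.09 to 14.7 ± 4.64 CPM (SD, n = 3), a log2 fold change of −0.60 (SE 0.17, adjusted p = 0.00963, edgeR). DDX60, a helicase reported to assist RNA sensing, had 22.6, 27.6 and 31.9 CPM in DMSO and 18.3, 16.3 and 12.8 CPM in WFA. Its WFA libraries all lay below its DMSO libraries, with a log2 fold change of −0.79 (SE 0.15, adjusted p = 0.000599, edgeR). DDX58 (RIG-I), the sensor of RNA with a 5′ triphosphate, was not called at a log2 fold change of 0.22, with a 95% interval of −0.07 to 0.52. The DNA sensor IFI16 differed by −0.01, with both groups between 50.4 and 63.5 CPM. DHX58 (LGP2), which modulates the other RNA helicases, had a log2 fold change of 0.59 with an adjusted p of 0.11 from edgeR, and with the replicate number as a block 0.57 with an adjusted p of 0.0377.

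The IFIT proteins bind viral RNA and block its translation. Of the 4, IFIT5 rose and the others were not called, where 25.8% of all tested genes rose. IFIT5, which lies with IFIT2, IFIT3 and IFIT1 in a cluster on chromosome 10, had 2.74, 2.45 and 2.5 CPM in DMSO and 4.49, 5.32 and 4.56 CPM in WFA. All WFA libraries exceeded all DMSO libraries, and the log2 fold change was 0.90 (SE 0.21, adjusted p = 0.00228, edgeR). Its neighbours were scarce in both groups, at 0.564 to 1.66 CPM for IFIT1, 1.05 to 2.78 CPM for IFIT2 and 1.37 to 4.92 CPM for IFIT3. At these depths the 95% interval for IFIT1 ran from −1.34 to 0.27 and that for IFIT3 from −1.21 to 0.17, which include changes of over 2-fold. IFIT3 was called lower with the replicate block, at −0.52 with an adjusted p of 0.0457 from edgeR, but not without it at an adjusted p of 0.194.

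Of the OAS genes, which make the oligoadenylate that activates RNase L, 3 of 4 fell, where 24.7% of all tested genes fell. The median log2 fold change of the family was −0.89. OAS1, OAS3 and OAS2 are neighbours on chromosome 12, at chr12:112906777-112933222, chr12:112938352-112973249 and chr12:112978395-113011723 in GENCODE 29 (GRCh38), and all 3 fell. OAS1 had 4.57, 5.84 and 7 CPM in DMSO and 2.45, 2.01 and 2.51 CPM in WFA. OAS3 had 15.3, 13.5 and 18 CPM in DMSO and 7.35, 6.52 and 7.82 CPM in WFA. The groups of both genes were apart, with log2 fold changes of −1.31 (SE 0.23, adjusted p = 0.000256, edgeR) for OAS1 and −1.11 (SE 0.16, adjusted p = 3.18e-05, edgeR) for OAS3. OAS2 fell less, from 17.6 ± 4.12 to 11.1 ± 1.92 CPM (SD, n = 3), by 0.67 on the log2 scale (adjusted p = 0.0058, edgeR). OASL, which lacks synthetase activity, was close to the detection floor at 0.632 to 1.83 CPM, and its interval of −0.90 to 1.00 leaves its change undetermined at this depth.

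The MX genes encode dynamin-like GTPases that trap viral nucleocapsids, and both fell, where 24.7% of all tested genes fell. MX1 had 7.53, 6.55 and 12.2 CPM in DMSO and 5.39, 2.66 and 3.54 CPM in WFA. The groups did not overlap, although DMSO replicate 3 was well above the other 2 DMSO libraries, and the log2 fold change was −1.17 (SE 0.27, adjusted p = 0.00218, edgeR). MX2, adjacent to MX1 on chromosome 21 and known to restrict HIV-1, fell from 20.2 ± 3.28 to 12.7 ± 2.87 CPM (SD, n = 3), by 0.67 on the log2 scale (adjusted p = 0.00417, edgeR).

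The guanylate-binding proteins, GTPases that coat intracellular pathogens and are classical targets of interferon gamma, went both ways although all 4 members lie in 1 cluster on chromosome 1. GBP4 had 9, 6.24 and 9.33 CPM in DMSO and 3.43, 3.38 and 2.7 CPM in WFA. Its groups were apart, and it fell by 1.36 on the log2 scale (SE 0.21, adjusted p = 8.2e-05, edgeR). GBP2 had 10.2, 10.6 and 8.17 CPM in DMSO and 11.4, 15.1 and 13.4 CPM in WFA. It was higher in every WFA library, with a log2 fold change of 0.46 (SE 0.16, adjusted p = 0.0248, edgeR), a call lost when any of DMSO replicate 3, WFA replicate 2 or WFA replicate 3 was left out and with total-count scaling (adjusted p = 0.0576, edgeR). GBP5, a promoter of inflammasome assembly, was not called at 0.27 (adjusted p = 0.282, edgeR), and GBP1, with 3 to 5 counts per library, was not tested.

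Membrane restriction factors held the largest rise. BST2 (tetherin), at chr19:17402939-17405648 on the minus strand, holds budding virions at the cell surface. It had 59.8, 52.5 and 44.2 CPM in DMSO and 181, 182 and 217 CPM in WFA. Every WFA library was at about the same high level, and the mean rose 3.70-fold from 52.2 ± 7.82 to 194 ± 20.5 CPM (SD, n = 3), a log2 fold change of 1.89 (SE 0.11, adjusted p = 6.65e-09, edgeR). IFITM1, which blocks fusion of viruses at the cell surface, had 2.39, 2.45 and 2.25 CPM in DMSO and 3.84, 4.91 and 4.47 CPM in WFA. All its WFA libraries were higher, with a log2 fold change of 0.89 (SE 0.22, adjusted p = 0.00302, edgeR). IFITM2 and IFITM3, which act in endosomes and are encoded beside IFITM1 on chromosome 11, were present at 21.8 to 43.6 CPM and were not called, at 0.10 and 0.16. Of the 50-base windows of IFITM1's longest coding transcript, 42.3% also occur in other genes, mainly IFITM2 (39.0%), and the deposited counts do not show how such reads were assigned, so the split among these genes is uncertain.

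ISG15 is a ubiquitin-like protein, HERC5 is its main ligase, HERC6 a relative of HERC5, and USP18 removes ISG15 and also dampens IFNAR signalling. Of these 4, USP18 and HERC6 fell and none rose, where 24.7% of all tested genes fell and 25.8% rose. ISG15 itself was scarce, at 1.67 to 3.38 CPM in DMSO and 2.12 to 3.06 CPM in WFA, and was not called at −0.07 with a 95% interval of −0.68 to 0.54. USP18 had 2.46, 2.45 and 1.75 CPM in DMSO and 1.55, 1.13 and 0.837 CPM in WFA. The groups were apart, with a log2 fold change of −0.91 (SE 0.30, adjusted p = 0.0208, edgeR), a call that was lost without DMSO replicate 1 or 2 or without WFA replicate 2 or 3 and with DESeq2 (adjusted p = 0.0672). Of its 50-base windows, 23.4% are shared, nearly all with USP41. HERC6 went from 7.43 ± 1.35 to 5.2 ± 0.763 CPM (SD, n = 3), at −0.51 (adjusted p = 0.0392, edgeR), a call lost without DMSO replicate 2 or 3 or WFA replicate 1 or 2 and with DESeq2 (adjusted p = 0.0603). HERC5 was called lower with the replicate block, at −0.42 with an adjusted p of 0.0198 from edgeR, and not without it at an adjusted p of 0.0966.

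The nuclear body proteins PML, SP100 and SP110, which repress incoming viral DNA, showed little difference between the groups. None of the 3 was called, where 50.5% of all tested genes were, and their log2 fold changes were −0.01, −0.08 and 0.02. SP100 had 164 to 179 CPM in DMSO and 160 to 173 CPM in WFA, and for all 3 genes the 95% interval stayed within 0.5 either way on the log2 scale.

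Intracellular restriction factors and nucleotide enzymes held the deepest falls, with a median of −1.11. Of their 5 tested members 4 were lower, where 24.7% of all tested genes fell. TRIM22, a ubiquitin ligase that restricts several viruses, had 3.73, 4.11 and 5.08 CPM in DMSO and 1.14, 1.77 and 1.3 CPM in WFA. CMPK2, a mitochondrial nucleotide kinase, had 29.9, 25.5 and 29.5 CPM in DMSO and 10.8, 11 and 6.51 CPM in WFA. Both were lower in every WFA library, by 1.60 on the log2 scale (SE 0.26, adjusted p = 0.000121, edgeR) for TRIM22 while the log2 fold change of CMPK2 was −1.57 (SE 0.17, adjusted p = 2.15e-06, edgeR).

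RSAD2 (viperin), which makes a chain-terminating nucleotide from CTP and is the divergent neighbour of CMPK2 on chromosome 2, fell from 8.37 ± 0.903 to 5.15 ± 1.36 CPM (SD, n = 3), by 0.69 on the log2 scale (adjusted p = 0.00921, edgeR). SAMHD1, at chr20:36889773-36951901, had 657, 594 and 610 CPM in DMSO and 308, 301 and 253 CPM in WFA. Its 2 groups lay far apart, with DMSO at 2.16 times the WFA level, at −1.11 (SE 0.10, adjusted p = 3.17e-07, edgeR). Of its exon bases 10.3% overlap the opposite-strand gene TLDC2. TRIM5, which binds retroviral capsids, was below its DMSO range in every WFA library, at 12.7 to 13.4 against 14.3 to 15.4 CPM, but was not called at −0.17 (adjusted p = 0.292, edgeR). ISG20, an exonuclease, had 7 to 13 counts per library and was not tested.

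The last group joins STAT2 to induced proteins of diverse roles. Of its 11 tested members 3 rose and 1 fell, where 25.8% of all tested genes rose and 24.7% fell. STAT2, at chr12:56341597-56360155, is the subunit of ISGF3 that carries its activation domain. It had 49.2, 53.1 and 56.9 CPM in DMSO and 110, 104 and 129 CPM in WFA. The rise was present in every library, at 2.16-fold with a log2 fold change of 1.11 (SE 0.10, adjusted p = 4.18e-07, edgeR). XAF1, a pro-apoptotic partner of XIAP, had 33.6, 39.7 and 42.6 CPM in DMSO and 17.3, 15.6 and 22.9 CPM in WFA. It was lower in all WFA libraries at −1.06 (SE 0.14, adjusted p = 2.22e-05, edgeR). Of its exon bases 38.3% overlap the opposite-strand gene PRAL, and the library kit does not keep strand.

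IFI30 (GILT), a lysosomal thiol reductase of antigen processing, had 62.3, 41.1 and 70.6 CPM in DMSO and 95.5, 59.4 and 124 CPM in WFA. The groups overlapped and replicate 2 was the lowest library of both, while the rise within pairs was 0.62, 0.53 and 0.81 on the log2 scale. It was called at 0.68 (SE 0.21, adjusted p = 0.0156, edgeR), but not with DESeq2 (adjusted p = 0.142), with the robust edgeR fit (adjusted p = 0.139) or without DMSO replicate 2, WFA replicate 1 or WFA replicate 3. A readthrough transcript, AC007192.1, shares 87.5% of its 50-base windows. IFI6, a mitochondrial and endoplasmic reticulum protein, had 17.5, 14.8 and 14.1 CPM in DMSO and 21.8, 16.2 and 23.4 CPM in WFA. WFA replicate 2 lay within the DMSO range, and the call at 0.40 (SE 0.15, adjusted p = 0.0396, edgeR) was lost without DMSO replicate 2 or 3 or without WFA replicate 1 or 3, with DESeq2 (adjusted p = 0.0526) and with total-count scaling (adjusted p = 0.0967, edgeR).

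The other 7 tested members of that group were not called. PARP9 and PARP14, members of the ADP-ribosyltransferase family, had log2 fold changes of −0.07 and 0.11, and IFI35 had −0.14. IFI44, IFI44L and LGALS3BP lay at 0.725 to 3.46 CPM, with log2 fold changes of 0.27, −0.50 and 0.20. EPSTI1 was called lower with the replicate block, at −0.62 with an adjusted p of 0.0226 from edgeR, and not without it at an adjusted p of 0.0898. Over the 23 tested members without a call, the 95% interval lay within 2-fold either way for 17 and reached 2-fold for 6, namely DHX58, IFIT1, IFIT3, OASL, IFI44L and EPSTI1. These intervals are from the fit without the replicate block, in which none of the 6 could be told from no change, whereas DHX58, IFIT3 and EPSTI1 were called with the block. The block fit also gave far smaller p-values, with BST2 at an adjusted p of 6.86e-105 against 6.65e-09 without the block (edgeR). How much of the added calls comes from the pairing and how much from the fit's estimate of spread was not tested.

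**Figure D3:**
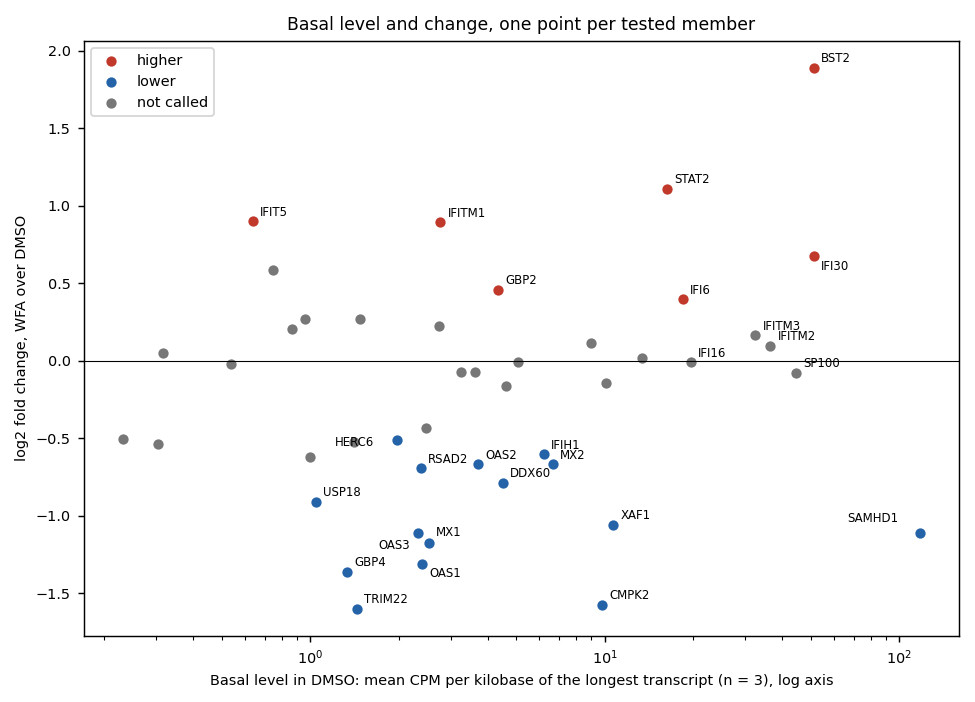
Basal level of the 45 tested members, as mean DMSO CPM per kilobase of the longest transcript (n = 3, log axis), against the log2 fold change of WFA over DMSO, coloured by call. SAMHD1, at 117 CPM per kilobase, fell while BST2, at 51.2, rose, so members at the high end of the basal range went in both directions.

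**Figure D4:**
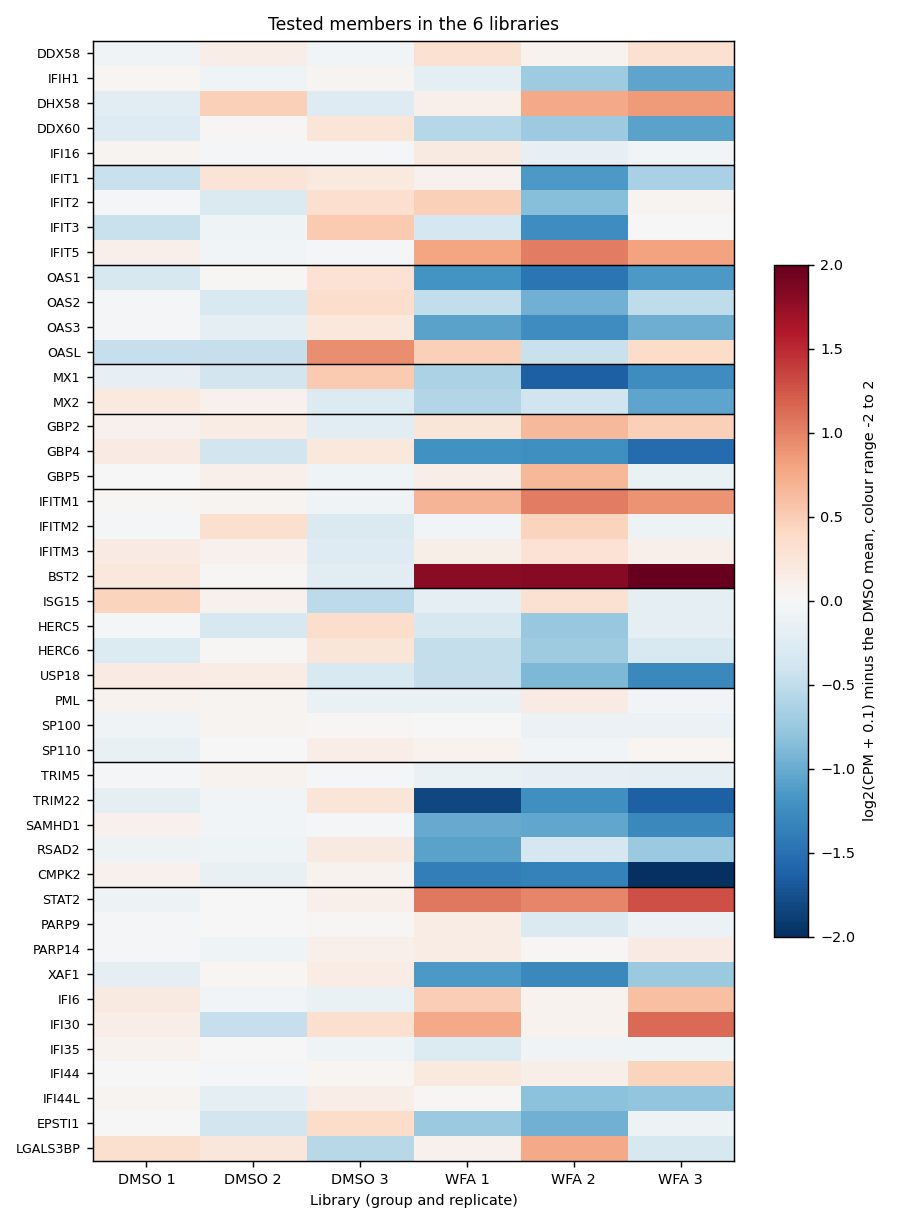
The 45 tested members in each of the 6 libraries, as log2(CPM + 0.1) minus the DMSO mean of the gene, with red above and blue below that mean and the colour range set at −2 to 2. The 3 WFA columns are blue through OAS1, OAS2, OAS3, MX1 and MX2 and red for BST2 and STAT2.

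The other genes of the pathway, 127 genes in 7 lists of ligands, receptors, interferon regulatory factors, sensor adaptors, inhibitors, further interferon-stimulated genes and MHC class I genes, also went both ways, with 28 higher (34.6%, against 25.8% of all tested genes) and 27 lower (33.3%, against 24.7%) of 81 tested. With scaling by total counts in place of TMM the split was 22 higher (27.2%) and 33 lower (40.7%), while over all tested genes 21.5% were higher and 30.1% lower. Interferon transcripts were not detected, since over 21 ligand genes and 6 libraries the only read was 1 for IFNB1 in WFA replicate 2. A count of 0 allows up to 0.279 CPM per gene in the shallowest library, for counting error only.

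IRF9, the DNA-binding partner of STAT2, had 14.1, 10.7 and 14.3 CPM in DMSO and 23.7, 20.6 and 27.8 CPM in WFA. All WFA libraries were higher, as for STAT2, with a log2 fold change of 0.88 (SE 0.15, adjusted p = 0.00019, edgeR). In the same list of receptors and kinases JAK2 fell by 0.72 (adjusted p = 9.92e-06, edgeR) and IFNAR2 by 0.28 (adjusted p = 0.0195, edgeR), the latter not called without DMSO replicate 1 or WFA replicate 3.

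Of 6 tested interferon regulatory factors, IRF1, IRF2 and IRF4 rose and IRF5 and IRF8 fell. Over all tested genes 25.8% rose and 24.7% fell. IRF1, the early activator downstream of interferon gamma, had 23.2, 22.3 and 22.6 CPM in DMSO and 32.1, 25.4 and 31.2 CPM in WFA. Its groups were apart at 0.38 (adjusted p = 0.0142, edgeR), a call lost without DMSO replicate 2 or WFA replicate 1. IRF2, a partial antagonist of IRF1, rose by 0.86 (adjusted p = 2.47e-05, edgeR). IRF4 was at 0.96 (adjusted p = 0.0374, edgeR), not called by DESeq2 (adjusted p = 0.172), with total-count scaling, without the count filter, or without DMSO replicate 1 or 2 or WFA replicate 1 or 2. IRF5 was at −0.87 and IRF8, the myeloid factor, at −2.24. IRF7, the main amplifier of interferon production, had at most 2 counts in any library.

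Of 13 tested sensor adaptors, kinases and endosomal sensors, 6 rose and 5 fell, where 25.8% of all tested genes rose and 24.7% fell. TLR8 and TLR7, endosomal receptors for single-stranded RNA, had log2 fold changes of −2.24 and −1.46, and TMEM173 (STING), the adaptor of DNA sensing, fell by 0.85. TICAM1, the adaptor of TLR3, rose by 0.98 and MAVS, the adaptor of RIG-I and MDA5, by 0.40. Among 12 tested inhibitors 6 rose and 3 fell, with SOCS3, which blocks JAK kinases, at 2.11 (adjusted p = 2.65e-06, edgeR) and TNFAIP3, an inhibitor of NF-κB, at −1.09.

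Among 35 tested interferon-stimulated genes outside the 48, 10 rose and 14 fell, where 25.8% of all tested genes rose and 24.7% fell. ZC3HAV1 (ZAP), which binds CpG-rich viral RNA, had 203, 183 and 214 CPM in DMSO and 669, 621 and 741 CPM in WFA. Its WFA libraries were all far above DMSO, at 1.76 on the log2 scale (adjusted p = 3.08e-09, edgeR), while TDRD7 fell by 1.16 and PNPT1 by 1.02. Of 5 tested MHC class I genes HLA-B rose by 0.42 and HLA-C by 0.30, and none fell. HLA-C was not called with total-count scaling, or without DMSO replicate 1, DMSO replicate 3, WFA replicate 2 or WFA replicate 3. The other 7 of the 12 listed MHC class I genes were not tested. HLA-E, HLA-F and TAP1 had at most 1 count in any library, PSMB8 and PSMB9 at most 2, and TAP2 and TAPBP at most 10. Whether such low counts, also those of IFI27, IRF7 and the ligands, reflect expression or how reads were counted was not tested.

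**Figure D5:**
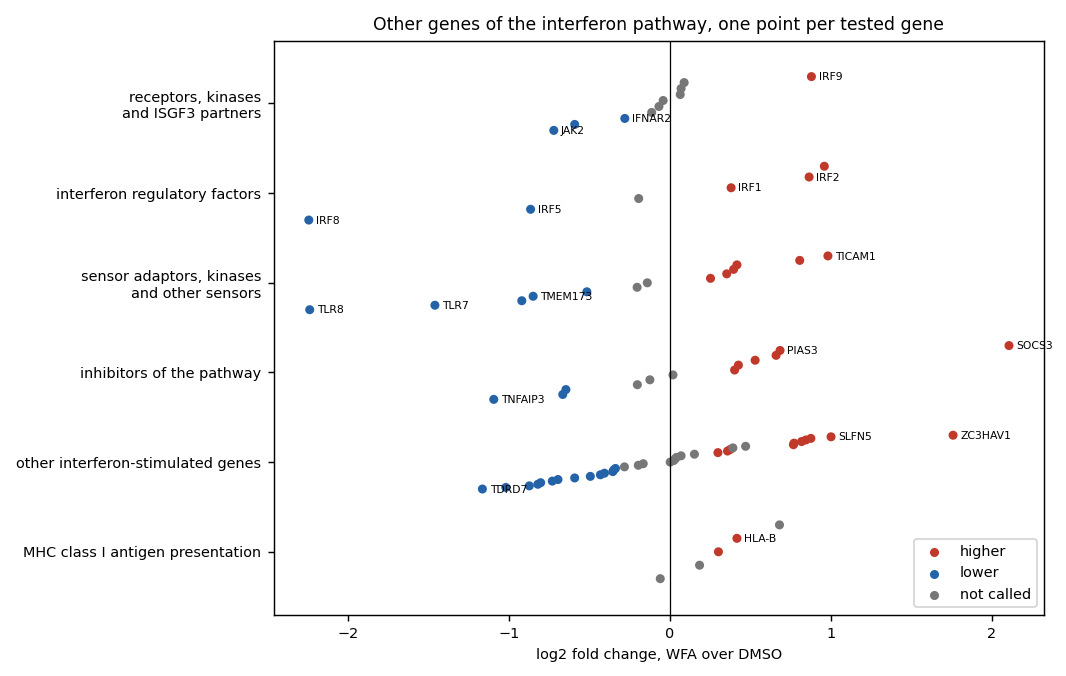
Log2 fold change of WFA over DMSO for the 81 tested genes of the other pathway lists, with 1 point per gene, in red for the 28 higher, blue for the 27 lower and grey for those not called. SOCS3 at 2.11 and ZC3HAV1 at 1.76 lie on the right, and IRF8 and TLR8, both at −2.24, on the left.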

How the data were processed

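Total RNA from THP1 cells was sequenced by the study from 3 DMSO and 3 WFA libraries made with a kit that does not keep strand. The authors deposited whole-number read counts for 26485 genes, which were used as deposited. Their rounded scaled counts and their own comparison, with fold changes and p-values, were not used. The submitters' processing notes name bcl2fastq 2.19, Trimmomatic, Bowtie2, Picard, featureCounts, DESeq2 and hg38. The annotation used for counting is not given in the sources used here. Reads that match several genes, or both strands, may therefore have been assigned or dropped in ways that change the values of overlapping genes.

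Counts were analysed with edgeR 4.0.16 in R 4.3.3, with filterByExpr at a minimum count of 10, TMM factors and the quasi-likelihood test on all 12854 genes kept, with Benjamini-Hochberg adjustment over those genes and calls at an adjusted p under 0.05. CPM values are TMM-scaled, intervals cover 95%, and a fold past 2 was required where stated. Replicate numbers were taken to pair the libraries, since the sample descriptions give same-numbered libraries of both groups the same string of digits. The digits look like a date, but the labels do not say what they stand for. The correlations of same-numbered deviations from the group means were 0.20, 0.31 and 0.23 over 12854 genes. The main fit did not use the pairing, and its p-values set the difference between groups against the spread among libraries within a group. An exact permutation test of 3 against 3 libraries cannot give p under 0.1. Alternatives were the replicate block, DESeq2 1.42.0, other scalings and filters, a robust fit and leaving out each library.

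The members and the lists of other genes were chosen with earlier results of these data known. Values per library are given for the called members with the largest rises and falls, up to 10 each, for called members against the majority of their role group and for the 3 highest basal levels per length. Up to 4 called genes per pathway list and direction could be named, with IFNB1, IRF9, IRF1 and IRF7 whatever their values. Not every gene chosen in this way is reported here. Sequence overlap and lengths used GENCODE 29 on GRCh38, and promoter sequences are from RefSeq on GRCh38.p14. Protein sequences were not used here.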

Additional observations from a re-analysis of the deposited data

How the results depend on the processing

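Across 14 alternatives, 17 of the 22 called members kept their direction and call in every one. GBP2, HERC6, USP18, IFI6 and IFI30 lost the call in at least 1, and none of the 22 changed direction. Leaving out 1 library at a time gave 4 to 7 members higher, the lowest without WFA replicate 3, and a median log2 fold change between −0.18 and −0.060, both ends being negative. With the replicate block 8 members rose and 18 fell, the additions being DHX58, IFIT3, HERC5 and EPSTI1, and it ended no call among the 22. Calls over all tested genes also grew with the block, to 30.2% higher and 28.8% lower. What the pairing and the fit's estimate of spread each contributed to the added calls was not tested. DESeq2 called 5 members higher and 13 lower, beside 23.1% and 23.8% of all tested genes, and total-count scaling 5 and 15, beside 21.5% and 30.1%. Counts past 2-fold were 2 higher in every setting and 8 lower in each setting that kept all libraries, with 6 to 9 lower when 1 library was left out. Depth limits the members near 1 CPM, where 10 counts in a library are the filter's order of size.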
